A study of Mus musculus with 96 samples.

Results

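Acute phase proteins are plasma proteins whose release from the liver shifts during infection, inflammation or injury. The mouse genes Saa1, Saa2, Saa3, Saa4, Apcs, Hp, Hpx, Orm1, Orm2 and Lcn2 were picked by name as members of this class, and they are 10 of the 56748 genes in the deposited count table. RNA was sequenced from liver, muscle and cortex of mice fed ad libitum (AL) or kept on intermittent fasting (IF), with 8 mice per diet and sex and the same mouse numbers in all 3 tissues. Male mice 1 to 8 were on AL and 9 to 16 on IF, and female mice 25 to 32 were on AL and 33 to 40 on IF. The male mice were C57BL/6, entered their regimen at 6 weeks of age and stayed on it for 4 months, with food withheld for 16 h of each day under IF, and tissue was taken at the end of the fasting window. Strain, age and fasting schedule of the female mice are not given in the sources used here. Sex and mouse series cannot be told apart, since every female mouse comes from the higher numbers.

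The acute phase response is run largely by hepatocytes. Cytokines of the interleukin-six family act there through STAT3, and interleukin-one and tumor necrosis factor act through NF-kB and C/EBP factors, which together raise transcription of the responding genes. In the mouse, serum amyloid A and serum amyloid P are the strongest reactants of the plasma, whereas haptoglobin, hemopexin and the orosomucoids sit high at rest and respond less steeply, and several members are also made elsewhere, Hp and Orm1 in fat, Saa3 in fat and macrophages, Lcn2 in neutrophils and epithelia.

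The 95 libraries used held 26097314 to 49838004 counts each, with a median of 36132954. Levels are given as CPM, counts relative to the library total, scaled by the TMM method within a tissue. Sex labels were checked first. Xist stood at 40.5 CPM or more in each female library and at 0.559 CPM or less in each male library used, and Ddx3y stood at 24.5 CPM or more in the male and at 0.0468 CPM or less in the female libraries. The cortex library of male AL mouse 1 held Xist at 216 CPM and Ddx3y at 0 CPM, against its label, and was left out, so that 7 libraries remained in that group. The tissue labels were met in all libraries used: Alb was at least 21349 CPM in liver and at most 3.31 CPM elsewhere, Acta1 at least 36252 CPM in muscle and at most 28.6 CPM elsewhere, and Snap25 at least 1549.6 CPM in cortex and at most 0.263 CPM elsewhere.

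A pair of liver libraries stood apart from their groups in the genes followed here. In IF male mouse 16, Saa1 reached 205 CPM against 15.5 to 46.8 CPM in the other 7 IF males. In AL female mouse 28, Saa1 reached 224 CPM against 8.06 to 31.6 CPM in the other 7 AL females. Both mice were also far above their groups in Saa2, Saa3 and Lcn2, and the liver tests were run again without them.

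All 10 genes had counts in each of the 32 liver libraries. Ordered by median CPM per kilobase of gene length over these libraries, Hp (2204) was followed by Hpx (1678), Orm1 (1094), Saa4 (120), Apcs (54.2), Orm2 (24.7), Saa1 (7.57), Saa2 (3.36), Saa3 (2.54) and Lcn2 (1.48). The ranges of neighbours in this order overlapped over the libraries, except that the lowest Orm1 value (556 CPM per kilobase) lay above the highest Saa4 value (180 CPM per kilobase). The lengths that the table gives for Saa1 and Saa2, 2478 and 2518 bases, span nearly their whole loci of 2484 and 2524 bases. With the canonical transcripts of 757 and 652 bases, Saa1 came to 24.8 CPM per kilobase and passed Orm2 (24.7), with no other change in the order.

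Outside the liver most members were read at low levels, and few passed the filter on low counts. In muscle, Hp ranged from 1.16 to 82.0 CPM (median 16.6), Orm1 from 0.348 to 24.0 CPM (median 1.8) and Lcn2 from 0.144 to 52.2 CPM (median 0.561), and these 3 genes passed the filter on low counts in both mouse series. Saa1 was highest at 3.52 CPM, or 134 counts, in AL female mouse 27, and Saa3 at 0.87 CPM, or 31 counts, in AL male mouse 4. Saa4 and Apcs had 0 counts in all 32 muscle libraries. In cortex, Hpx ranged from 0.289 to 1.35 CPM (median 0.777) and Hp from 0.0511 to 0.82 CPM (median 0.338), and only these passed the filter there. Apcs had 0 counts in all 31 cortex libraries used, Saa4 had 3 counts in 1 of them, and none of the others exceeded 0.607 CPM.

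In male liver, 5 of the 10 members were differentially expressed between IF and AL, all higher under IF, at a Benjamini-Hochberg (BH) adjusted p under 0.05 in edgeR's quasi-likelihood test. The same test called 44.6% of the 16204 genes tested, and 23.5% as higher. The median log2 fold change of the members was 0.56 against 0.06 over all genes tested, and 9 of the 10 had a value above 0. Without mouse 16 the median was 0.34 and 8 of the 10 were above 0. In bulk tissue, a change in the number of cells of a type and a change in RNA per cell cannot be told apart.

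Saa1 and Saa2 encode the inducible serum amyloid A proteins that travel on high density lipoprotein. Saa1 ran from 5.55 over a median of 14.6 to 28.9 CPM under AL and from 15.5 over 20.7 to 205 CPM under IF. All 8 IF mice lay above the AL median, but only 3 above every AL mouse. Its log2 fold change was 1.57 with a standard error of 0.61 (edgeR, BH-adjusted p = 0.0488). Saa2 ran from 2.72 over 6.12 to 12.5 CPM under AL and from 7.16 over 8.72 to 139 CPM under IF. The groups overlapped as for Saa1, with 3 IF mice above every AL mouse. Its log2 fold change was 1.97 with a standard error of 0.72 (edgeR, BH-adjusted p = 0.0365). Both values rest on mouse 16: without its library they were 0.62 and 0.57, and neither gene was called (edgeR, BH-adjusted p = 0.192 and 0.122, with ranges of 0.0422 to 0.216 and 0.0309 to 0.261 over all alternatives). They were sensitive to other libraries too: Saa1 was called in 7 and Saa2 in 11 of 23 alternatives, and of 16 fits that each left out 1 library, 10 lost the call of Saa1 and 7 that of Saa2. The ranges of adjusted p over all alternatives, here and below, take in DESeq2 as well as edgeR.

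Saa3, a serum amyloid A gene with strong expression in macrophages and fat, ran from 3.41 over 4.74 to 6.61 CPM under AL and from 5.71 over 8.15 to 37.2 CPM under IF. Of the IF mice, 6 of 8 lay above every AL mouse and the others lay within the AL range. Its log2 fold change of 1.23 (standard error 0.35; edgeR, BH-adjusted p = 0.00861) became 0.66 without mouse 16 and was still called (edgeR, BH-adjusted p = 0.00398, with a range of 0.00297 to 0.033 over all alternatives). Saa4, the constitutive serum amyloid A gene, ran from 231 over 266 to 307 CPM under AL and from 212 over 311 to 376 CPM under IF. Its groups overlapped, and its log2 fold change of 0.24 (standard error 0.11) was not called (edgeR, BH-adjusted p = 0.0791). Apcs, which encodes the pentraxin serum amyloid P, was the only member with a value below 0. It ran from 24.0 over 46.2 to 56.2 CPM under AL and from 28 over 35.9 to 43.2 CPM under IF. No IF mouse exceeded the AL median, yet the IF range lay inside the AL range and the log2 fold change of -0.28 (standard error 0.14) was not called (edgeR, BH-adjusted p = 0.126).

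Orm1 and Orm2 encode orosomucoids, carriers of drugs and lipids in plasma. Orm2 ran from 7.77 over 13.9 to 17.6 CPM under AL and from 18.8 over 25.1 to 144 CPM under IF. Its groups did not overlap, as all 8 IF mice lay above every AL mouse, with mouse 16 at the top. How many of all genes separate in this way was not counted. Its log2 fold change was 1.86 with a standard error of 0.44 (edgeR, BH-adjusted p = 0.00304), and without mouse 16 it was 1.39 (edgeR, BH-adjusted p = 0.00241, with a range of 8.23e-05 to 0.0575 over all alternatives). Orm1, the more abundant of the pair per kilobase, ran from 677 over 802 to 1007 CPM under AL and from 664 over 846 to 1535 CPM under IF. The groups overlapped, and its log2 fold change of 0.20 (standard error 0.15) was not called (edgeR, BH-adjusted p = 0.306).

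Hp encodes haptoglobin, which binds free hemoglobin, and Hpx encodes hemopexin, which binds free heme. Hp ran from 2814 over 3384 to 4031 CPM under AL and from 3779 over 4458 to 5545 CPM under IF. All 8 IF mice lay above the AL median and 5 above every AL mouse. The log2 fold change was 0.47 with a standard error of 0.11 (edgeR, BH-adjusted p = 0.00163), the smallest adjusted p among the members, and it was 0.43 without mouse 16 (edgeR, BH-adjusted p = 0.00444, with a range of 0.000265 to 0.00456 over all alternatives). Hpx ran from 1932 over 2254.5 to 2889.9 CPM under AL and from 1842 over 2403 to 4271 CPM under IF. Its groups overlapped, with 2 IF mice above and 1 below every AL mouse, and its log2 fold change of 0.24 was not called (edgeR, BH-adjusted p = 0.207). Lcn2, which encodes the siderophore carrier lipocalin-2, ran from 1.6 over 2.11 to 4.93 CPM under AL and from 1.57 over 2.39 to 14.4 CPM under IF. Only mouse 16 lay above the AL range, and the log2 fold change of 0.64 (edgeR, BH-adjusted p = 0.223) turned to -0.06 without it.

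**Figure D1:**
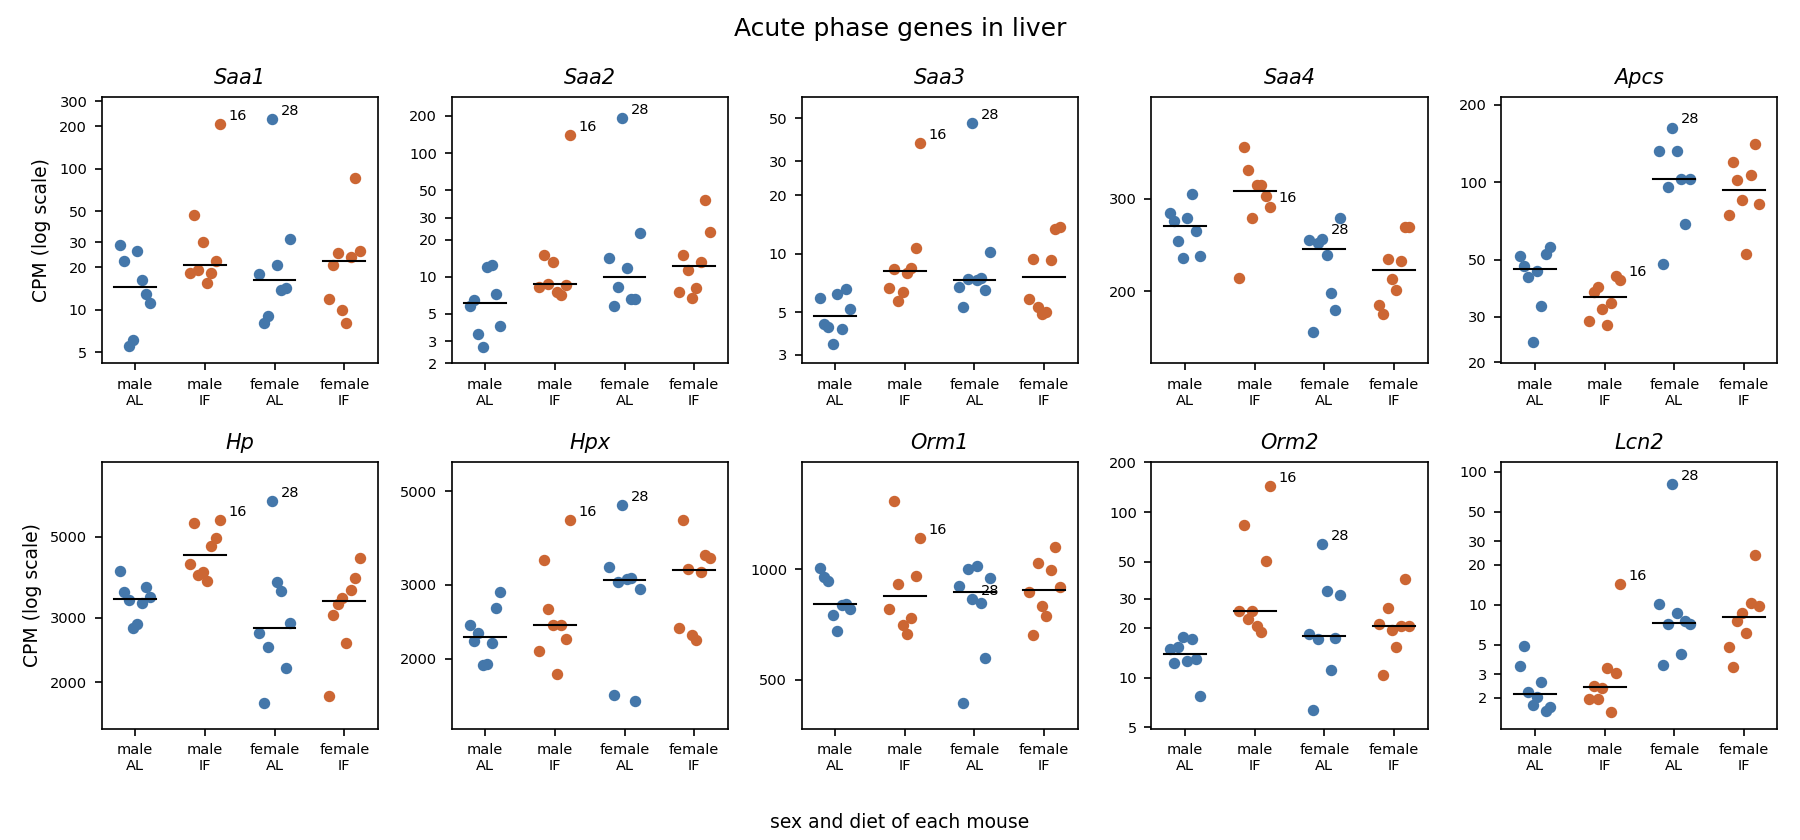
CPM on a log scale in liver for each member, with 1 point per mouse, blue for AL and orange for IF, black lines at group medians and mice 16 and 28 marked.

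In female liver, 0 of the 10 members were called between IF and AL, where edgeR called 0% of 15938 genes. At an unadjusted p under 0.05, 919 genes passed in edgeR, none of them a member, and DESeq2 called 4 genes and 0 members. The members' median log2 fold change was -0.18 against -0.01 over all genes, with 3 above and 7 below 0. Without mouse 28 it was 0.21, with 8 above and 2 below 0. Mouse 28, an AL mouse, set the sign of 5 members: without it, the log2 fold change went from -0.70 to 0.67 for Saa1, from -1.09 to 0.55 for Saa2, from -0.56 to 0.20 for Saa3, from -0.82 to 0.42 for Lcn2 and from -0.21 to 0.17 for Orm2. None was called with or without it.

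Levels in the female mice overlapped between the diets for every member. Saa1 ran from 8.06 over 16.1 to 224 CPM under AL and from 8.09 over 22.2 to 85.5 CPM under IF. Orm2 ran from 6.32 over 17.8 to 64.3 CPM under AL and from 10.3 over 20.4 to 39.5 CPM under IF. Hp ran from 1750.0 over 2813 to 6272 CPM under AL and from 1829.9 over 3335 to 4361 CPM under IF. The lowest IF mice thus stood inside the AL range for these 3 genes, and so did the highest. Mouse 28 alone set the top of the AL range. The other AL females reached 31.6, 33.4 and 3748 CPM in Saa1, Orm2 and Hp, below the highest IF mice. The other 7 members had log2 fold changes between -1.09 for Saa2 and 0.13 for Orm1.

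**Figure D2:**
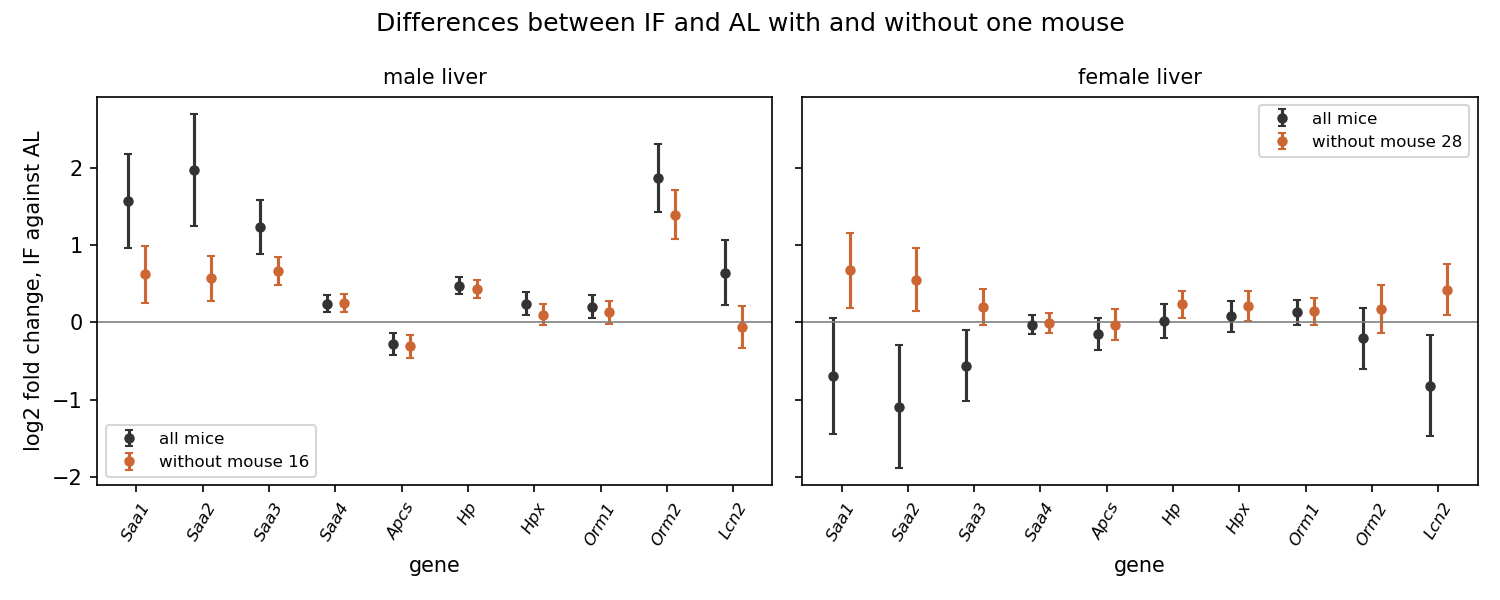
Log2 fold change of IF against AL for each member in male and female liver, with standard errors as bars, over all mice (black) and without mouse 16 or mouse 28 (orange).

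Whether the difference between the diets differed between the mouse series was tested as the interaction of sex and diet. In liver, 3 of the 10 members were called, all below 0, in a test that called 23.7% of 17658 genes, and 10.9% as below 0. The log2 interaction was -2.03 for Orm2 (edgeR, BH-adjusted p = 0.013), -1.75 for Saa3 (edgeR, BH-adjusted p = 0.0347) and -3.02 for Saa2 (edgeR, BH-adjusted p = 0.0406). It was -2.22 for Saa1 and was not called (edgeR, BH-adjusted p = 0.101). DESeq2 was given all mice, but by default it replaces outlying counts in groups of this size, and which counts it replaced was not recorded. It called Orm2 at -2.04 and Saa3 at -1.77, but gave 0.03 for Saa2 and 0.08 for Saa1, neither called (DESeq2, BH-adjusted p = 0.00333, 0.0162, 0.975 and 0.941). Hp, called in males only, had an interaction of -0.42 (edgeR, BH-adjusted p = 0.236), so a difference between the series was not shown. Mice 16 and 28 raised opposite diet groups of the pair of series. Without them 0 members were called, while edgeR still called 3844 genes of 17820, and the values became -1.19 for Orm2, -0.44 for Saa3, 0.01 for Saa2 and 0.08 for Saa1 (edgeR, BH-adjusted p = 0.0698, 0.32, 0.997 and 0.953). Over all alternatives, the adjusted p of Orm2 ran from 0.00333 to 0.147, that of Saa3 from 0.0162 to 0.32, that of Saa2 from 0.0286 to 0.997 and that of Saa1 from 0.0729 to 0.953 in edgeR and DESeq2.

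The AL mice of both series were compared directly in liver, where 3 of 10 members were higher in females. This test called 22.3% of 16090 genes, and 10.9% as higher in females. The members' median log2 fold change was 1.04 against 0.02 over all genes, and 0.33 without mouse 28. Apcs ran from 24.0 over 46.2 to 56.2 CPM in males and from 48.0 over 103 to 163 CPM in females. Of the females, 7 of 8 lay above every male, and the remaining 1 fell inside the male range. The log2 fold change of 1.24 (edgeR, BH-adjusted p = 0.000213) was 1.12 without mouse 28 (edgeR, BH-adjusted p = 0.00037, with a range of 4.81e-08 to 0.0014 over all alternatives). Lcn2 ran from 1.6 over 2.11 to 4.93 CPM in males and from 3.5 over 7.35 to 81.5 CPM in females, with 6 of 8 females above every male. Its log2 fold change of 2.66 (edgeR, BH-adjusted p = 0.0106) fell to 1.42 without mouse 28 and was still called (edgeR, BH-adjusted p = 0.000303, with a range of 5.6e-06 to 0.0184 over all alternatives). Saa3 had a log2 fold change of 1.29 (edgeR, BH-adjusted p = 0.0433) and of 0.52 without mouse 28 (edgeR, BH-adjusted p = 0.0323, with a range of 0.0265 to 0.0668 over all alternatives). The remaining 7 were not called, from -0.24 for Saa4 to 2.31 for Saa2. Mouse 28 carried the values of Saa2 and Saa1, which went from 2.31 to 0.66 and from 1.39 to 0.01 without it. Saa2 passed in 1 of 5 alternatives, with adjusted p of 0.0481 to 0.232 over those in edgeR and DESeq2.

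Saa2, Saa1 and Lcn2 led the elevations in both mice, in this order. In mouse 16, the ratio to the median of the other 7 IF males was 16.1 for Saa2, 10.6 for Saa1, 6.14 for Lcn2, 5.76 for Orm2 and 4.69 for Saa3. In mouse 28, the ratio to the median of the other 7 AL females was 23.3 for Saa2, 15.7 for Saa1, 11.3 for Lcn2, 6.51 for Saa3 and 3.72 for Orm2. The abundant members moved less, with 1.32 and 2.3 for Hp and 1.78 and 1.52 for Hpx. Saa4 stayed at 0.91 and 1.08 times the median of its group. In muscle neither mouse was the highest of its group for Orm1, Hp or Lcn2, and in cortex mouse 16 was the highest of its group for Hpx (1.15 CPM, 39 counts) and Saa2 (0.264 CPM, 9 counts), and mouse 28 for none of the members with counts. Orm1 had 1 count in the cortex of mouse 16 and 0 in that of the other 7 IF males, too few to rank.

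Macrophage markers moved with these livers. The 7 markers summed to 685 CPM in mouse 16 against a group median of 240 CPM, and to 1128 CPM in mouse 28 against a group median of 283 CPM, with IF female mouse 34 next at 532 CPM. Clec4f was the most abundant of them in each liver group, and none was at 0 in all mice of a liver group. Between IF and AL, 2 of the 7 were called higher in male liver, beside 23.5% of all genes, Marco at 1.69 and Clec4f at 0.41 on the log2 scale (edgeR, BH-adjusted p = 0.0438 and 0.0468), and 0 in female liver. Without mouse 16, 0 of the 7 were called in male liver, with Marco at 0.69 and Clec4f at 0.24 (edgeR, BH-adjusted p = 0.139 and 0.147). In AL liver, 4 of the 7 were called higher in females than in males, beside 10.9% of all genes, Marco at 2.23, Lyz2 at 2.07, Cd68 at 0.95 and Clec4f at 0.63 (edgeR, BH-adjusted p = 0.0388, 0.0105, 0.0156 and 0.00392). Without mouse 28, Marco at 1.21 was not called, and Lyz2 at 1.26, Cd68 at 0.58 and Clec4f at 0.53 were (edgeR, BH-adjusted p = 0.107, 0.00181, 0.0189 and 0.00893). The 10 neutrophil markers summed to 23.7 CPM in mouse 16 and 35.2 CPM in mouse 28, the highest of their groups, against medians of 14.2 and 9.33 CPM, with Csf3r the most abundant. Without mouse 16, 1 of 4 neutrophil and 1 of 3 adipocyte markers tested were called lower in male liver under IF, and 0 higher. With all mice, 44.6% of all genes were called there. The adipocyte marker Cfd had medians of 23.7 CPM in AL and 0.853 CPM in IF male liver. Of the 5 erythrocyte markers, 3 were called higher in male liver under IF, beside the same 23.5% of all genes, led by Hbb-bs at 3.17 (edgeR, BH-adjusted p = 0.000167), and their sum ran from 406 over 585 to 915 CPM under AL and from 674 over 1979.7 to 6345 CPM under IF. Of the 6 hepatocyte markers, Cyp2e1 was called higher at 1.55 and Apoa1 lower at -0.48 (edgeR, BH-adjusted p = 1.29e-07 and 0.005). The part of other cells in the levels of the members was not tested.

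In male muscle, 1 of the 3 members tested was called between IF and AL, in a test that called 23.1% of 15025 genes, and 11.5% as higher. That member was Orm1. It ran from 0.42 over 1.04 to 4.88 CPM under AL and from 1.52 over 4.72 to 24.0 CPM under IF. All 8 IF mice lay above the AL median and 4 above every AL mouse. The log2 fold change was 2.33 with a standard error of 0.67 (edgeR, BH-adjusted p = 0.0221, with a range of 0.00196 to 0.0473 over all alternatives). Hp ran from 6.54 over 22.2 to 82.0 CPM under AL and from 3.7 over 21.0 to 70.0 CPM under IF, and Lcn2 from 0.174 over 0.415 to 0.645 CPM and from 0.252 over 0.392 to 0.976 CPM. Both overlapped widely between the diets, at log2 fold changes of 0.06 and 0.14, and neither was called (edgeR, BH-adjusted p = 0.957 and 0.804). Saa3 failed the filter on low counts in muscle. Without that filter it was called lower under IF, at -3.77 (edgeR, BH-adjusted p = 0.00509), from 54 counts in the AL and 3 counts in the IF libraries, 31 of the former in mouse 4. Macrophage markers summed to between 37.7 and 78.6 CPM in AL and between 28.3 and 54.6 CPM in IF male muscle. The part of macrophages in the Saa3 difference was not tested.

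In female muscle, 0 of the 3 members tested were called, where edgeR called 0.00653% of 15308 genes. At an unadjusted p under 0.05, 1644 genes and 0 members passed in edgeR, and DESeq2 called 82 genes and 0 members. Orm1 ran from 0.545 over 1.92 to 2.89 CPM under AL and from 0.348 over 1.23 to 4.12 CPM under IF, and its log2 fold change was -0.04. Hp ran from 3.24 over 7.37 to 27 CPM and from 1.16 over 12.1 to 61.2 CPM, at 0.70. Lcn2 ran from 0.252 over 3.51 to 32.2 CPM and from 0.144 over 6.8 to 52.2 CPM, at 0.37. All 3 overlapped between the diets. In the interaction of sex and diet, 0 of 4 members tested were called in muscle against 14.2% of 16346 genes, although 1, Orm1, passed at an unadjusted p under 0.05, where 4527 genes passed, and DESeq2 called 1 member and 2671 genes. The interaction of Orm1 was -2.33 (edgeR, BH-adjusted p = 0.0534), so that its difference between the series was not called, and DESeq2 gave -2.36 (BH-adjusted p = 0.0205, with a range of 0.0196 to 0.0998 over all alternatives).

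Most adipocyte markers moved with Orm1 in male muscle. Beside 23.1% of all genes called and 11.5% called higher, 6 of the 7 were called higher under IF, Cfd at 2.84, Cidec at 2.52, Adipoq at 2.25, Retn at 2.20, Plin1 at 2.20 and Fabp4 at 1.81 on the log2 scale (edgeR, BH-adjusted p from 0.0014 for Fabp4 to 0.0329 for Plin1). The seventh, Lep, was at -1.25 and was not called (edgeR, BH-adjusted p = 0.238), with medians of 4.06 CPM under AL and 2.79 CPM under IF. Their sum ran from 171 over 347 to 777 CPM under AL and from 429 over 1541 to 3634 CPM under IF, with Fabp4 the most abundant and none at 0 in all mice of a group. In females 0 of the 7 were called, and the sum ran from 226 over 412 to 1098 CPM under AL and from 122 over 387 to 887 CPM under IF. Over the 32 muscle libraries, after subtraction of the mean of each sex and diet group, Pearson r of log2 CPM with the adipocyte sum was 0.9 for Orm1, 0.9 for Hp and 0.44 for Lcn2. It was 0.8, 0.79 and 0.26 with the hepatocyte sum, 0.4, 0.71 and 0.78 with the neutrophil sum and 0.17, 0.44 and 0.66 with the astrocyte sum. Aqp4 and Aldh1l1, at medians of 10.6 and 6.42 CPM in AL male muscle, made up most of the astrocyte sum. It is not read as astrocyte content of muscle. Of the 6 hepatocyte markers, 2 passed the filter in male muscle, and Cyp2e1 was called higher at 4.02 (edgeR, BH-adjusted p = 7.05e-05) and was the most abundant at a median of 85.5 CPM under IF, while Alb reached at most 3.31 CPM in any muscle library. Of the 6 skeletal muscle markers, Mylpf and Ckm were called lower in males, where the 23.1% of all genes called were of both directions, at -0.29 and -0.19 (edgeR, BH-adjusted p = 0.0128 and 0.0382). The part of fat in the Orm1 difference was not tested.

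Lcn2 in muscle was higher in most female mice than in the males, although the mouse series overlapped. This comparison of the series was added after its values were seen, so its p-values are not an independent test of them. In AL muscle, 1 of the 3 members tested was called between the series, against 40.3% of 15079 genes, and 20.6% as higher in females. Lcn2 was 0.645 CPM or less in the AL males and 0.252 to 32.2 CPM in the AL females. Of these females, 6 of 8 lay above every AL male, and the other 2 stood inside the male range. The log2 fold change was 4.71 with a standard error of 0.97 (edgeR, BH-adjusted p = 0.00162, with a range of 3.69e-08 to 0.003 over the alternatives that gave a value). Under IF, 6 of 8 females also lay above every male and 1 below, with a ratio of medians of 17.3. Hp was lower in AL females at -1.25 without being called (edgeR, BH-adjusted p = 0.098), and Orm1 was at 0.05.

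**Figure D3:**
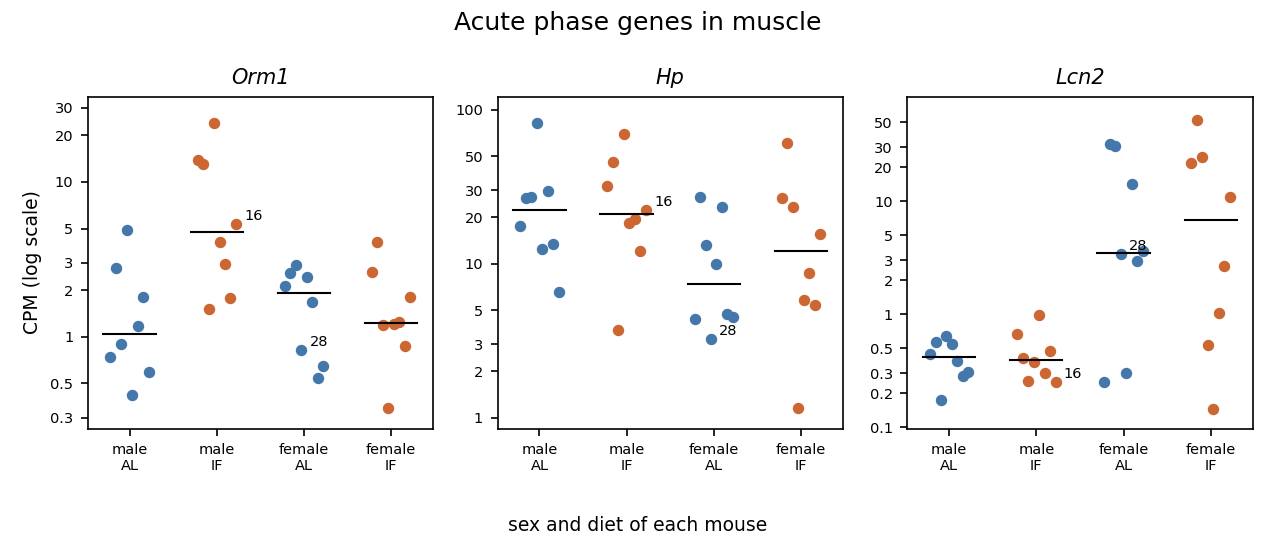
CPM on a log scale in muscle for Orm1, Hp and Lcn2, with 1 point per mouse, blue for AL and orange for IF, black lines at group medians and mice 16 and 28 marked.

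The 10 neutrophil markers summed to between 0.395 and 98.2 CPM in female and between 0.653 and 5.96 CPM in male muscle. Ltf was the most abundant of them in females, with group medians of 9.46 and 16.5 CPM, and of the 4 tested in AL muscle it alone was called between the series (edgeR, BH-adjusted p = 0.00172), beside 40.3% of all genes called and 20.6% called higher in females. No fold is given for it, since its median in AL males was 0.0733 CPM, with 0 counts in 3 of the 8 libraries. S100a8 and S100a9, at group medians of 0.17 to 0.392 CPM in all 4 muscle groups, showed no such step, and Ly6g was at 0 in all female IF and all male AL mice. Pearson r of Lcn2 with the sum was 0.78 over the 32 muscle libraries after subtraction of group means. The genes with the highest r to Lcn2 among 12440 genes in muscle, named after the values were seen, included Krt19 (0.88), Mfge8 (0.87), Spint2 (0.87) and Krt18 (0.87). The source of Lcn2 in these libraries was not tested.

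In cortex, 0 of the 2 members tested were called in males, where edgeR called 7.21% of 18462 genes, and 0 of 2 in females, where it called 0.0109% of 18403 genes. Neither passed at an unadjusted p under 0.05, which 4400 genes did in males and 2069 in females, and DESeq2 called 0 members there, against 2187 and 61 genes. Hp ran from 0.0511 over 0.358 to 0.586 CPM in AL males and from 0.237 over 0.407 to 0.82 CPM in IF males, at a log2 fold change of 0.35. Hpx ran from 0.289 over 0.777 to 1.35 CPM and from 0.703 over 0.844 to 1.15 CPM, at 0.11. The diets overlapped for both. In females, Hp ran from 0.114 over 0.321 to 0.49 CPM under AL and from 0.164 over 0.259 to 0.464 CPM under IF, at -0.23, and Hpx from 0.51 over 0.758 to 1.09 CPM and from 0.523 over 0.713 to 1.14 CPM, at 0.01. The diets overlapped here too. The interaction called 0 of 2 members against 2.03% of 19547 genes, with 3006 genes and 0 members at an unadjusted p under 0.05 in edgeR and 709 genes and 0 members in DESeq2.

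The other genes of the response gave a mixed picture in male liver. Of 18 further positive acute phase genes tested, out of 19 in the table, edgeR called 7 higher and 3 lower under IF, beside 44.6% of all genes called and 23.5% called higher, with a median log2 fold change of 0.13 against 0.06 over all genes. The largest were Mt1 at 4.11, Il1rn at 1.33, C3 at 0.94 and Cp at -0.78 (edgeR, BH-adjusted p = 2.14e-05, 0.0472, 1.31e-05 and 3.66e-06). Without mouse 16 Il1rn was at 0.73 and was not called (edgeR, BH-adjusted p = 0.269), and 6 were called higher and 4 lower. Negative acute phase genes, whose output drops in inflammation, went both ways as well: of 11 tested 3 were higher and 3 lower, with a median of -0.22. The largest were Rbp4 at 1.18, Trf at 0.81, Serpina7 at -0.76 and Apoa1 at -0.48 (edgeR, BH-adjusted p = 8.74e-08, 2.1e-05, 1e-05 and 0.005).

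Of 24 genes of cytokine signalling to STAT3, C/EBP and NF-kB tested out of 26, 10 were called higher and 0 lower in male liver and 14 were not called, with a median of 0.28. Over all genes this test called 44.6%, and 23.5% as higher. The largest were Il1r1 at 1.70, Il6ra at 1.66, Cebpd at 1.63 and Cebpb at 1.56 (edgeR, BH-adjusted p = 0.00136, 2.63e-08, 1.58e-08 and 2.78e-07). Among the 8 receptors and clearance partners, 3 were higher and 1 lower, with a median of 0.25: Hmox1, which breaks down heme, at 1.40, Tlr2 at 0.83, Slc22a17, a lipocalin-2 receptor, at 0.63 and Cd36 at -0.50 (edgeR, BH-adjusted p = 3.42e-06, 0.0306, 0.0118 and 0.0136). Without mouse 16 Tlr2 was at 0.62 and was not called (edgeR, BH-adjusted p = 0.103). In female liver edgeR called 0 genes of the 4 lists, with 19, 11, 24 and 8 tested and medians of 0.01, 0.14, -0.07 and -0.11. In the interaction, which called 23.7% of all genes and 10.9% as below 0, 1 of 19 further positive genes was above and 3 below 0, led by Mt1 at -4.00, 2 of 11 negative genes were above and 1 below, 0 of 24 signalling genes were above and 7 below, with Il1r1 at -1.88, Cebpd at -1.39, Cebpb at -1.29 and Il6ra at -1.14, and among 8 receptors and partners Hmox1 was below at -1.67 (edgeR, BH-adjusted p = 6.75e-05, 0.00153, 0.000643, 0.000317, 0.002 and 0.00262). Without mice 16 and 28 the numbers above and below 0 in the 4 lists were 2 and 3, 2 and 1, 0 and 6, and 0 and 2.

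Between AL females and AL males in liver, edgeR called 6 of 18 further positive genes higher and 1 lower, with a median of 0.14, beside 22.3% of all genes called and 10.9% called higher. Mt1 stood at 6.28, Il1rn at 3.42, Orm3 at 2.54 and Itih3 at -0.94 (edgeR, BH-adjusted p = 1.16e-07, 1.16e-07, 9.39e-05 and 0.000436). Of the negative genes 3 of 11 were higher, led by Serpina6 at 2.15, of the signalling genes 6 of 24, led by Cd14 at 1.32, and of the receptors and partners 2 of 8, Tlr2 at 0.96 and Hmox1 at 0.89, with none lower (edgeR, BH-adjusted p = 7.98e-10, 0.027, 0.0477 and 0.0478). Without mouse 28 Cd14 at 0.64, Tlr2 at 0.47 and Hmox1 at 0.51 were not called (edgeR, BH-adjusted p = 0.109, 0.239 and 0.0779). The numbers called higher and lower were then 6 and 2 for the further positive genes, 3 and 0 for the negative genes, 5 and 0 for the signalling genes and 0 and 1 for the receptors and partners.

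In male muscle, where 23.1% of all genes were called and 11.5% as higher, edgeR called 1 of 8 further positive genes higher (Mt1, 0.84) and 1 lower (Lbp, -0.56), and 2 of 4 negative genes higher (Rbp4, 2.38, and Trf, 1.39), with BH-adjusted p of 0.00546, 0.00192, 0.0093 and 0.00285. Of 20 signalling genes, 9 were higher and 2 lower, among them Cebpd at 2.05, Cebpa at 1.71, Il6ra at 1.29 and Socs3 at -1.21 (edgeR, BH-adjusted p = 0.000197, 0.027, 9.77e-06 and 0.00553). Cebpa and Rbp4 were among the genes most like Orm1 over the muscle libraries after subtraction of group means (Pearson r = 0.94 and 0.93). So was the adipocyte marker Plin1 (0.92). The part of fat in the calls of Cebpa and Rbp4 was not tested. Of 7 receptors and partners, Cd36 at 0.61 and Hmox1 at 0.41 were higher and Tlr2 at -1.19 was lower (edgeR, BH-adjusted p = 0.00213, 0.00813 and 0.0063). In male cortex, where 7.21% of all genes were called, 3 of 21 signalling genes were higher, Nfkbia at 0.76, Cebpd at 0.55 and Tyk2 at 0.43, and Cd36 was lower at -1.55 (edgeR, BH-adjusted p = 0.00224, 0.0239, 0.0164 and 0.0286). No gene of the 4 lists was called by edgeR in female muscle or female cortex.

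In the interaction of sex and diet in muscle, which called 14.2% of all genes, edgeR called Mt1 at -0.77 and Lbp at 0.58 of the further positive genes, Rbp4 at -2.64 of the negative genes and Cd36 at -1.03 of the receptors and partners (BH-adjusted p = 0.0476, 0.0391, 0.0183 and 0.0134). Of 20 signalling genes 1 was above and 5 below 0, among them Cebpd at -1.54 and Socs3 at 1.31 (edgeR, BH-adjusted p = 0.00255 and 0.0193). In cortex, at 2.03% of all genes, it called Nfkbia at -0.63 and Trf at -0.53 (edgeR, BH-adjusted p = 0.0181 and 0.0418). Between AL females and AL males in muscle, where 40.3% of all genes were called and 20.6% as higher, Cp at 1.0 and Trf at 1.26 were higher, Igf1 at -0.68 and Hmox1 at -0.33 were lower, and of 20 signalling genes 5 were higher and 2 lower, with Il1r1 at -0.73 the furthest from 0 (edgeR, BH-adjusted p = 0.00832, 0.0339, 0.00252, 0.0137 and 0.000304).

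Markers of other cells were read in the same tests. In male liver, where 44.6% of all genes were called and 23.5% as higher, edgeR called 2 of 2 tested markers of cortex neurons higher, 1 of 1 of the choroid plexus, 2 of 3 of astrocytes with 1 lower, and 1 of 4 of endothelium. In male muscle, where 23.1% of all genes were called, it called 0 of 2, 1 of 1, 1 of 2 and 0 of 4 of these lists, none lower. The choroid plexus marker tested in male liver and muscle was Aqp1. Aldh1l1 of the astrocytes had medians of 800 CPM in AL male liver and 55.5 CPM in AL male cortex. The calls in liver and muscle are therefore not read as content of neurons, choroid plexus or astrocytes. In male cortex, where 7.21% of all genes were called, Aqp4 of the astrocytes was lower at -0.51 and Cldn5 of endothelium at -0.43 (edgeR, BH-adjusted p = 0.00258 and 0.0252). None of these 4 lists had a gene called by edgeR in the female mice between the diets.

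Likeness across mice was measured as Pearson r of log2 CPM over the 32 liver libraries after subtraction of the mean of each sex and diet group, against 13344 genes. The genes most like Saa1 were Saa2 (0.94), Saa3 (0.86), Cyba (0.84), C1qc (0.84) and Laptm5 (0.84). Without mice 16 and 28, over 30 libraries, these were 0.86, 0.64, 0.65, 0.63 and 0.65. The genes most like Lcn2 were Saa1 (0.82), Saa2 (0.82), Saa3 (0.78), Msr1 (0.77) and Orm2 (0.76), and they dropped further, to 0.57, 0.48, 0.33, 0.49 and 0.57. Genes among those most like Hp moved less: Lrg1 (0.89, then 0.86), Tspo (0.86, then 0.90), Ldha (0.84, then 0.81) and Cdipt (0.84, then 0.84). Orm1 and Orm2 had an r of 0.73, and of 0.79 without the pair of mice.

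Some members lie side by side in the genome and resemble each other in sequence. In GRCm39, Saa3, Saa4, Saa1 and Saa2 occupy chr7:46361422-46403737 in this order, Saa2 on the plus and the others on the minus strand. On the plus strand of chromosome 4, Orm1 ends at base 63266400 and Orm2 starts at base 63280686. The coding sequences of Saa1 and Saa2, 369 bases each in GENCODE vM39, differ at 18 bases, are 95.1% identical and share a run of 73 bases. Those of Orm1 and Orm2, 624 bases each, differ at 63 bases, are 89.9% identical and share a run of 104 bases. Saa1 and Saa3 differ at 99 bases. Orm3 was not compared. How reads that fit several places were counted is not given in the sources used here, so the division of reads between Saa1 and Saa2 and between Orm1 and Orm2 is uncertain. In liver Orm2 stood at 24.7 CPM per kilobase against 1094 for Orm1. How far the division of reads affects each member was not tested. The stretches of 60 coding bases with most differences are shown. Coding bases are counted from 1 at the start codon, the Saa stretch covers bases 90 to 149 and the Orm stretch bases 138 to 197, and capitals mark differing bases, 7 and 17 in number.
Saa1: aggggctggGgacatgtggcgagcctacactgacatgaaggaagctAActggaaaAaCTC
Saa2: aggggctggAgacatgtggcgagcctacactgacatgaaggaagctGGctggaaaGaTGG
Orm1: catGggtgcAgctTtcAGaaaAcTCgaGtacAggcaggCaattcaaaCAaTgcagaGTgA
Orm2: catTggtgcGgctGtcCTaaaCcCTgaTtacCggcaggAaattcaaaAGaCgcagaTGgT

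RefSeq entries on GRCm38.p6 gave promoters for 8 of the 10 members, all but Hp and Orm1. In the 250 bases before the start, on either strand, 7 of these 8 held the letters TTGCNNAA of a C/EBP motif, which 9.56% of all 32851 such windows hold. Apcs lacked them and was the 1 member of 8 with the letters TTCNNNGAA of a STAT3 motif (7.02% of windows), and the NF-kB decamer was in 0 of 8 (7.25% of windows). The match lay 182 to 175 bases before the start in Saa1, 183 to 176 in Saa2, 99 to 92 in Saa3, 120 to 113 in Orm2, 200 to 193 in Hpx and 216 to 209 in Lcn2, and Saa4 had a pair. The windows of Saa1 and Saa2 were nearly alike and held the same letters, TTGCACAA, so the 7 are not all separate cases. A match describes letters only. The windows of the 4 members called in male liver that have an entry are shown, although the calls of Saa1 and Saa2 were lost without mouse 16, with the match in capitals, Saa1 at chr7:46742981-46743230 (minus strand), Saa2 at chr7:46751583-46751832 (plus strand), Saa3 at chr7:46715677-46715926 (minus strand) and Orm2 at chr4:63362199-63362448 (plus strand), all 5′ to 3′.
Saa1: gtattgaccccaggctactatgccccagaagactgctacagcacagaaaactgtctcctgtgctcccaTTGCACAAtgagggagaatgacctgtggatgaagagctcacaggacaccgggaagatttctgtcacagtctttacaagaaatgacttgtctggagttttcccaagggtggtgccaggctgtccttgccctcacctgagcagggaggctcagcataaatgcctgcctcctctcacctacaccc
Saa2: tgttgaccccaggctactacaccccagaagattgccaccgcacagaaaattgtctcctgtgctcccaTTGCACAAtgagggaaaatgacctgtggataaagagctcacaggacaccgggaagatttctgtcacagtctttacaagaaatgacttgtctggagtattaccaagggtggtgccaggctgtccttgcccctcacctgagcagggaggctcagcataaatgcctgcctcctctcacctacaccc
Saa3: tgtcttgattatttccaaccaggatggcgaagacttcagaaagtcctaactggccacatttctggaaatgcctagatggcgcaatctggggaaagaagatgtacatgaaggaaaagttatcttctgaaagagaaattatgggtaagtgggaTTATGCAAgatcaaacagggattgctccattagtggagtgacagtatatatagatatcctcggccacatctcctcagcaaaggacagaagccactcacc
Orm2: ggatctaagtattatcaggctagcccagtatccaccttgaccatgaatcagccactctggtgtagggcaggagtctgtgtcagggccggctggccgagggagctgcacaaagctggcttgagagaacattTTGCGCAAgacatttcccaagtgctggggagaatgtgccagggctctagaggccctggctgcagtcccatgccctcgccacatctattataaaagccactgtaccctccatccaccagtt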

How the data were processed

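The gene counts deposited by the authors were used as given, with CPM computed from the raw counts and TMM-scaled library totals within each tissue. The cortex library of AL male mouse 1 was left out, so 95 of 96 libraries were used. Differences were tested with edgeR 4.0.16 (quasi-likelihood, robust) in R 4.3.3 after filterByExpr (min.count 10, min.total.count 15), with BH adjustment over all genes tested and a threshold of 0.05. Standard errors were derived from the quasi-likelihood F statistics. The alternatives were RLE size factors, DESeq2 1.42.0, no filter beyond 1 count, 10 counts in every library, unadjusted p, a change of at least 2-fold, a replicate block, and libraries left out. DESeq2 was run with its defaults, which replace outlying counts in groups of this size. limma 3.58.1, Python 3.11.15, NumPy 2.4.6, pandas 2.3.3 and Matplotlib 3.10.9 were also used. The members and the lists of acute phase, signalling, receptor and cell marker genes were chosen with earlier results of these data known. At most 4 called genes per list, those furthest from 0, and up to 5 of the genes most like a member were named. The code was tested on simulated data.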

Additional observations from a re-analysis of the deposited data

Results flagged for a closer look

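A single library stood far from the others of its group in 11 of 60 groups of values tested. The groups share mice, and a chance rate was not measured. In IF male liver it was mouse 16 for Saa1 (205 CPM), Saa2 (139 CPM), Saa3 (37.2 CPM) and Lcn2 (14.4 CPM). In AL female liver it was mouse 28 for Saa1 (224 CPM), Saa2 (193 CPM), Saa3 (47.4 CPM) and Lcn2 (81.5 CPM). Low values stood apart for Orm2 in the liver of AL male mouse 8 (7.77 CPM), and for Hp in the cortex of AL male mouse 2 (0.0511 CPM) and AL female mouse 32 (0.114 CPM). Of these 11, 8 thus come from 2 mice.

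The difference between the diets differed between the mouse series in liver for Orm2 (log2 interaction -2.03), Saa2 (-3.02) and Saa3 (-1.75), by the test of the interaction itself. None of the 3 was called by edgeR without mice 16 and 28, at -1.19, 0.01 and -0.44.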

How the results depend on the processing

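Of the members' fold changes under all alternatives, 809 kept their direction and side of the threshold, 38 lost the call, 14 gained it and 63 changed sign, of which 2 had been called, both for Saa2 in the liver interaction. In that interaction DESeq2 gave 0.03 for Saa2 and 0.08 for Saa1, a block within sex gave 0.04 for Orm1, and leaving out mice 16 and 28, chosen after seeing the data, gave 0.01 for Saa2, 0.08 for Saa1, 0.52 for Lcn2, 0.12 for Hpx and 0.03 for Orm1. In male liver DESeq2 gave -0.09 for Lcn2. In female liver DESeq2 gave 0.41 for Lcn2, 0.66 for Saa1, 0.54 for Saa2 and 0.20 for Saa3. Without mouse 28 edgeR gave 0.42, 0.67, 0.55 and 0.20 for these. The block in female liver gave 0.03 for Orm2, 0.11 for Saa1 and 0.11 for Saa2. In male muscle Hp was at -0.08 without mice 2 and 10, in female cortex Hpx at -0.01 with the block, and in the muscle interaction Lcn2 at -0.05 with a block within sex. The cause was not tested.

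The other 44 sign changes came from leaving out 1 library at a time, none of them in a called value. The ranges in female liver were -1.25 to 0.67 for Saa1, -1.47 to 0.55 for Saa2, -0.70 to 0.20 for Saa3, -0.08 to 0.01 for Saa4, -0.38 to 0.17 for Orm2, -0.07 to 0.23 for Hp, -0.01 to 0.21 for Hpx and -1.17 to 0.42 for Lcn2, and mouse 28 alone turned Saa1, Saa2, Saa3, Orm2 and Lcn2. In male liver Lcn2 ran from -0.06, without mouse 16, to 0.85. In male muscle Hp ran from -0.30 to 0.55 and Lcn2 from -0.10 to 0.26, and in female muscle Orm1 from -0.38 to 0.11 and Lcn2 from -0.33 to 0.83. In cortex Hpx ran from -0.04 to 0.29 in males and from -0.10 to 0.10 in females. The 120 tissue levels kept within the spread between mice on raw library totals.

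In male liver 5 members were called, and 3 in DESeq2, 3 with no filter, 3 without mice 2 and 10, and 2 with a replicate block. Over all genes the main test called 7234 of 16204. The alternatives called 7719 of 30675, 9270 of 30675, 6964 of 16131 and 7090 of 16204, in this order. Leaving out 1 library at a time gave 3 to 6: 3 without AL mouse 2, 3, 7 or 8 or IF mouse 16, and 6 without IF mouse 9. These fits called 6842 to 7218 genes. The cause was not tested. The block pairs replicate numbers, which do not pair mice, and it took the call from Orm2 (1.42; edgeR, BH-adjusted p = 0.0575, with a range of 8.23e-05 to 0.0575 over all alternatives). Saa4 gained a call without IF mouse 9 (0.27) and without mice 2 and 9 (0.28), and Apcs without AL mouse 4 (-0.37). In male muscle 1 member was called, and 2 with no filter, beside 3465 of 15025 and 3081 of 32898 genes. Leaving out 1 library at a time gave 1 to 1, beside 2933 to 3740 genes. It gave 0 to 0 in female liver, female muscle and cortex.

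In the liver interaction, where 3 were called, no filter gave 1, a block within sex 0, and leaving out mice 16 and 28 gave 0. In the muscle interaction, where 0 were called, an unadjusted p, DESeq2, the strict filter and a block within sex each gave 1. At the unadjusted p, 4527 of 16346 genes passed there. Between AL females and males, 3 in liver became 6 at an unadjusted p, which 5513 of 16090 genes passed. In muscle 1 became 2 at an unadjusted p, which 7378 of 15079 genes passed. It became 2 in DESeq2, 2 with no filter and 0 with the strict filter. The strict filter gave no value for Lcn2 in muscle or for Hp in cortex. In AL muscle, Saa3 was called lower in females in DESeq2 (-4.24, BH-adjusted p = 0.00287) and with no filter (-3.95, edgeR, BH-adjusted p = 0.0025). Saa3 had 64 counts in total over the 32 muscle libraries. The muscle comparison, the tests of the list genes and the likeness without mice 16 and 28 and the canonical lengths were also chosen after seeing the data. With canonical lengths Saa1 stood at 24.8 and Orm2 at 24.7 CPM per kilobase.

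Without mice 16 and 28, r went from 0.94 to 0.86 for Saa1 and Saa2, and for Saa1 from 0.86 to 0.64 with Saa3, 0.84 to 0.65 with Cyba, 0.84 to 0.63 with C1qc and 0.84 to 0.65 with Laptm5. For Lcn2 it went from 0.82 to 0.57 with Saa1, 0.82 to 0.48 with Saa2, 0.78 to 0.33 with Saa3, 0.77 to 0.49 with Msr1 and 0.76 to 0.57 with Orm2.

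Counts over all genes moved in cortex as well. In males 1332 became 2187 in DESeq2, 382 with the block, 499 without mice 2 and 10, 379 without mice 2 and 9, 295 with the library of mouse 1 kept, and 638 without AL mouse 2 to 2059 without IF mouse 12. It was 766 without AL mouse 3, 771 without AL mouse 5, 878 without IF mouse 11, 866 without IF mouse 13 and 823 without IF mouse 14. In females 2 became 61 in DESeq2, 0 with the block, 254 without AL mouse 26 and 0 to 2 without any 1 other library. In the interaction 397 became 709 in DESeq2, 220 with no filter and 81 with mouse 1 kept. In muscle of females 1 became 82 in DESeq2 and 5 with no filter, and in liver of females 0 became 4 in DESeq2. Depth limits the cortex values, where Hp had 2 to 28 and Hpx 11 to 50 counts per library.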
